A study of Homo sapiens with 9 samples.

Results

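Chemokines are small secreted proteins that direct the movement of cells through G protein-coupled receptors, and tumour cells both release and sense them. The group described here is 10 genes: the CXC chemokines CXCL1, CXCL2, CXCL3, CXCL8, CXCL10 and CXCL16, the CC chemokines CCL2, CCL5 and CCL20, and the receptor CXCR4. Its members were taken as all probe sets whose platform symbol, brought up to date through gene identifiers, is one of these 10 symbols. That gave 13 of the 22215 probe sets tested, for 9 of the genes, while no probe set carried the symbol CXCL16, which was not analysed here.

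The arrays are Affymetrix 3′ expression arrays, 9 in all, hybridized with RNA from MDA-MB-231 cells, an established human line of triple-negative breast cancer. All cells carried a stably integrated pLKO lentiviral vector, and each of the 3 groups has 3 biological replicates. The groups are shco4 (hairpin #4 against Coco), shco2 (hairpin #2 against Coco) and scramble (a control hairpin). Coco, the product of DAND5, is a secreted antagonist of BMP, Nodal and activin ligands. As far as the labels say, each hairpin is represented by 1 transduced line, so a difference due to a hairpin and a difference between lines cannot be told apart. No probe set carried the symbol DAND5, so Coco RNA was not analysed here.

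CXCL1, CXCL2, CXCL3 and CXCL8 attract neutrophils, chiefly through CXCR2 and for CXCL8 through CXCR1 as well. Their transcription is known to be raised by NF-kB in response to cytokines such as IL1 and TNF. CXCL10 is induced by interferon and draws activated T cells through CXCR3. CCL2 attracts monocytes through CCR2, CCL5 attracts T cells and monocytes, and CCL20 is the ligand of CCR6. CXCR4 is the receptor of CXCL12 and is known for its part in the homing of breast cancer cells to lung and bone.

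RefSeq promoter windows (GRCh38.p14), which run from 250 bases before to 50 bases after the start site, were at hand for 7 of the member genes. They were searched on both strands for GGAATTTCC, the core of NF-kB sites known from several chemokine promoters. These letters stood in 162 of 35116 windows (0.461%). They stood in the windows of 5 members, CXCL1, CXCL2, CXCL3, CXCL8 and CXCL10, and in none of those of CCL20 and CXCR4. The windows of the 4 neutrophil chemokines are shown because these genes share the motif on the same strand. Whether the motif bears on their levels in these lines was not tested. Capitals mark the motif.
CXCL1 (chr4:73869143-73869442, plus strand): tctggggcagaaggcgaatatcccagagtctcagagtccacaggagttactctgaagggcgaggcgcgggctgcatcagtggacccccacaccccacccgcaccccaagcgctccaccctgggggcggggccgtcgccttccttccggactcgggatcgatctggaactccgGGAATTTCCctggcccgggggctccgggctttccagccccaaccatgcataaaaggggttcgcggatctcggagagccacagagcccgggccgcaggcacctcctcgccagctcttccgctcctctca
CXCL2 (chr4:74099146-74099445, minus strand): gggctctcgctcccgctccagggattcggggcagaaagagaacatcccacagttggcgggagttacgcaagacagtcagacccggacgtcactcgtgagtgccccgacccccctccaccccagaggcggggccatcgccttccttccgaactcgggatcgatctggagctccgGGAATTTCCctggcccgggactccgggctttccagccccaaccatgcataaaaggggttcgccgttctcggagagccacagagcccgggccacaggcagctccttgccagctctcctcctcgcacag
CXCL3 (chr4:74038640-74038939, minus strand): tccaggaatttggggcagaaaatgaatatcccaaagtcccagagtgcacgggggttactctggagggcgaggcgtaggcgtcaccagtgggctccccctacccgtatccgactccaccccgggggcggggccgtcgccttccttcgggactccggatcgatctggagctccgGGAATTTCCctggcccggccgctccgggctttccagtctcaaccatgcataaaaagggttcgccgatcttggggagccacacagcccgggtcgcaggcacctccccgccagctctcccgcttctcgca
CXCL8 (chr4:73740319-73740618, plus strand): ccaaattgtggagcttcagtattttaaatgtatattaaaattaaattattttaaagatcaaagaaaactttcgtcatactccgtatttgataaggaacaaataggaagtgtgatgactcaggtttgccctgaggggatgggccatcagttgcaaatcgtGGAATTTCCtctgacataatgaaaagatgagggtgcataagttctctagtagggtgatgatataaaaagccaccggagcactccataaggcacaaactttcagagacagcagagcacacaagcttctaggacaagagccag
The motif began 78 bases before the start site in CXCL1 and CXCL3, 77 in CXCL2 and 91 in CXCL8. Over the 69 bases made of the motif and 30 bases on each side, CXCL1, CXCL2 and CXCL3 were identical at 52 to 62 positions in pairs, and an unbroken shared run of 23 to 37 bases held the motif. CXCL8 matched each of them at 25 or 26 positions, with a shared run of the 9 motif bases alone. In CXCL10 the motif lay on the opposite strand, 176 bases before the start site at its farther end. CXCL8 was also the only one of the 7 genes with TGANTCA, the AP-1 motif, in its window (7.71% of all windows hold it). A match of letters is a description of the sequence and does not show that a factor binds there.

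Values are linear intensities as scaled by the authors. For tests, values under 16 were set to 16, called the floor here, and log2 was taken. A difference is in log2 intensity, first-named line minus second, with its SE and, in parentheses, the p-value of limma's moderated test adjusted over all 22215 probe sets. A call is an adjusted p under 0.05. CCL20 lay under the floor on all 9 arrays. CCL2 lay under it on 7 of 9 arrays and CCL5 at probe set 1405_i_at on 2 of 9, while the other 10 probe sets were above it on every array. Of those 10, the probe sets of CXCL3 and CXCL10 were under 64 on 7 arrays each and CCL5 at 204655_at on 4.

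**Figure D1:**
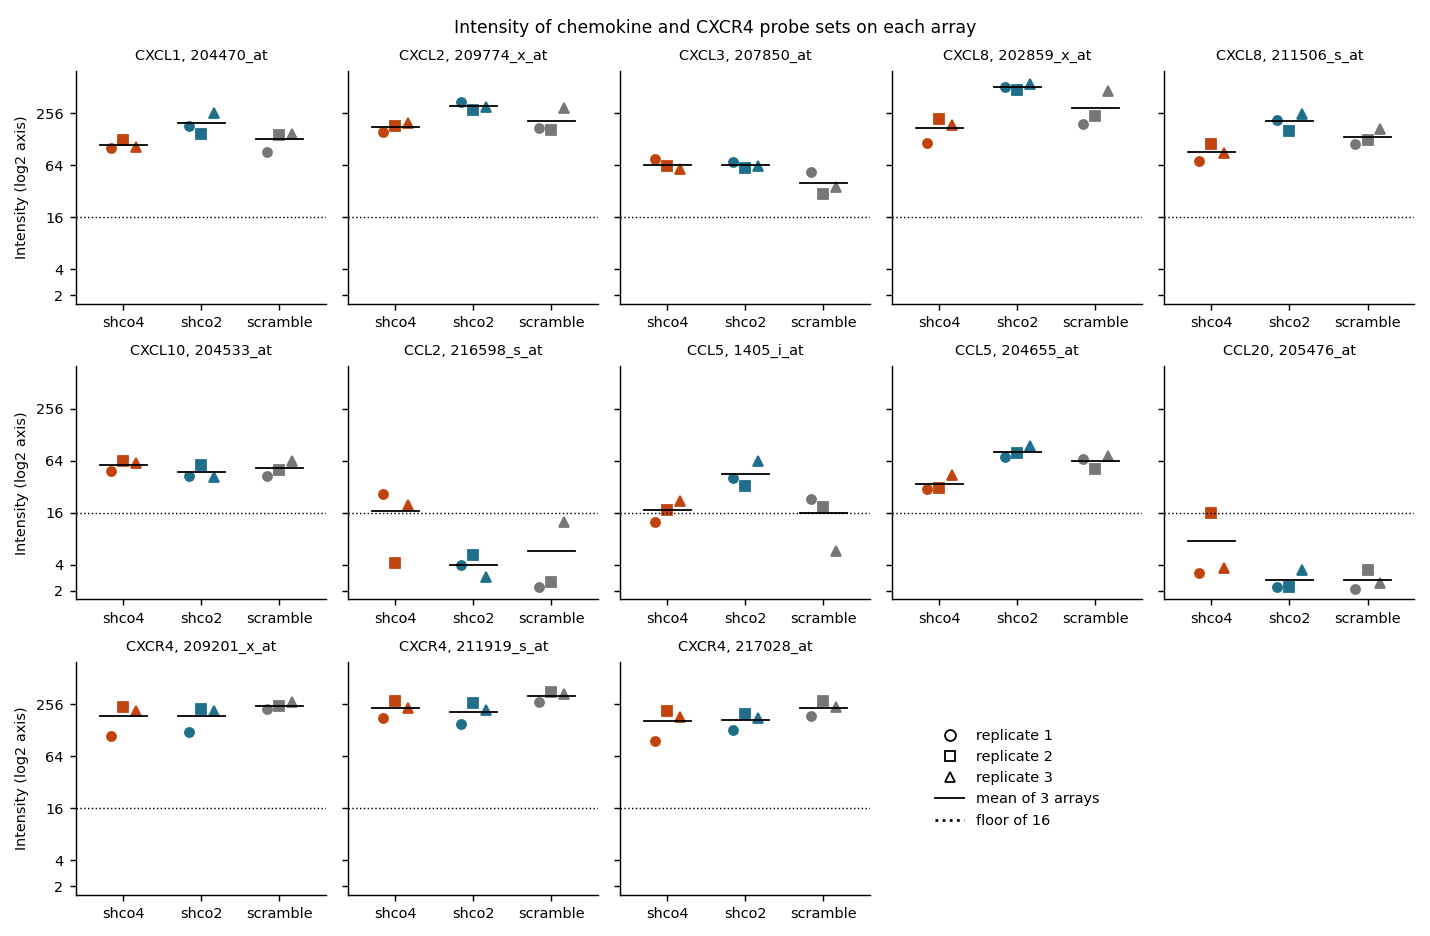
Intensity (log2 axis) of the 13 probe sets on each of the 9 arrays, with symbols for the replicate number, a bar for the mean of 3 arrays and a dotted line at the floor of 16. All CXCL8 values of shco4 lie below all CXCL8 values of shco2 at both probe sets, CCL20 lies under the floor throughout, and the first CXCR4 replicate is the lowest of each line.

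With shco4 against scramble, 1 of the 13 probe sets was called, CCL5 at 204655_at, which was lower. That is 7.69% of them, against 18.8% of all probe sets (9.05% higher and 9.75% lower). With the replicate number as a block in this comparison, 3 were called, CXCL3 and CXCR4 at 211919_s_at besides, beside 4913 of all 22215 probe sets. With shco2 against scramble, 1 of 13 was called as well, CCL5 at 1405_i_at, which was higher (7.69%, against 20.7% of all, 10.7% higher and 9.95% lower). Here too 3 were called with the block, CXCL3 and CXCR4 at 211919_s_at besides, beside 5345 of all probe sets. With shco4 against shco2, 4 of 13 were called, both probe sets of CXCL8 and both of CCL5, all lower with shco4 (30.8%, against 31% of all, 14.9% higher and 16.1% lower). The members were thus called less often than, or about as often as, probe sets at large, and these counts are not a result about the group. The arrays of 2 lines did not overlap at 3, 5 and 6 of the 13 probe sets in these comparisons, against 32.6%, 35.8% and 40.9% of all probe sets. In the last comparison all 6 were lower with shco4, against 20.8% of all probe sets lower and 20.1% higher without overlap. They were CXCL1, CXCL2 and both probe sets of CXCL8 and of CCL5, and probe sets of the same gene are not independent. In the first, 1 was higher and 2 lower (16.7% and 15.9% of all), and in the second, 4 were higher and 1 lower (19.4% and 16.4% of all). The same 3 scramble arrays stand in both comparisons with scramble. The median difference over the 13 probe sets was -0.18 for shco4 against scramble, 0.36 for shco2 against scramble and -0.10 for shco4 against shco2, beside 0 over all probe sets in each.

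CXCL8, also called interleukin 8, was lower with shco4 than with shco2 at both of its probe sets. Probe set 202859_x_at read 116, 222 and 188 with shco4, 517, 475 and 555 with shco2, and 191, 240.3 and 459 with scramble. Probe set 211506_s_at read 72.3, 114 and 90.0 with shco4, 217, 160.4 and 254 with shco2, and 114, 125 and 167 with scramble. At both, every shco4 array was below every shco2 array and the scramble arrays lay mostly in between. The shco4 line was lower than the shco2 line by 3.04-fold at 202859_x_at (log2 difference -1.61 ± 0.37, adjusted p = 0.0174) and 2.28-fold at 211506_s_at (-1.19 ± 0.25, adjusted p = 0.0118). The call at 202859_x_at ended without shco2 replicate 1 (adjusted p = 0.0526) or shco2 replicate 3 (adjusted p = 0.0573), while that at 211506_s_at held under all 18 other settings tried.

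Neither Coco line could be set apart from scramble for CXCL8. The differences with shco4 against scramble were -0.71 (95% interval -1.60 to 0.19, adjusted p = 0.268) at 202859_x_at and -0.56 (-1.16 to 0.04, adjusted p = 0.188) at 211506_s_at. Those with shco2 against scramble were 0.90 (0.01 to 1.79, adjusted p = 0.156) and 0.63 (0.03 to 1.23, adjusted p = 0.14). In order of mean level at both probe sets, shco2 came first, scramble next and shco4 last, and neighbours in that order did not differ at the threshold. The scramble arrays spread widely at 202859_x_at (SD 0.66 in log2), and without scramble replicate 3 the difference of shco2 from scramble there was 1.27 (adjusted p = 0.0407).

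CXCL1 and CXCL2, the closest relatives of each other in this group with CXCL3, had the same order of mean levels as CXCL8 and did not reach the threshold in the fit reported. CXCL1 read 102, 126 and 106 with shco4, 183, 149 and 260 with shco2, and 92.2, 145 and 147 with scramble. Its shco4 arrays were all below its shco2 arrays, at a difference of -0.79 ± 0.26 (adjusted p = 0.063). CXCL2 read 156, 181 and 200 with shco4, 348, 278 and 302 with shco2, and 171, 162 and 296 with scramble. All its shco4 arrays were again below all its shco2 arrays, at -0.79 ± 0.24 (adjusted p = 0.0509), while scramble replicate 3 fell among the shco2 arrays. Against scramble, shco4 differed by -0.18 for each of CXCL1 (interval -0.80 to 0.45) and CXCL2 (-0.77 to 0.40), and shco2 differed by 0.62 (-0.01 to 1.25) and 0.61 (0.02 to 1.19), with adjusted p = 0.773, 0.733, 0.164 and 0.144. Between the hairpin lines, CXCL1 passed under 5 and CXCL2 under 6 of the other settings, both with the pseudocount (adjusted p = 0.0292 and 0.0218), the filter on dim probe sets (0.0129 and 0.00983) and without probe sets at the floor throughout (0.0344 and 0.0274). CXCL1 also passed without shco2 replicate 2 (adjusted p = 0.0475) or scramble replicate 1 (0.0414), and CXCL2 without scramble replicate 3 (0.00636).

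CXCL3 did not follow CXCL1 and CXCL2. It read 75.2, 62.8 and 57.4 with shco4, 69.4, 60.3 and 62.7 with shco2, and 53.2, 29.98 and 36.3 with scramble. All 6 arrays with a Coco hairpin were above all scramble arrays, and the hairpin lines overlapped each other. The differences were 0.74 ± 0.22 with shco4 against scramble (adjusted p = 0.0589, or 0.0273 with the replicate block), 0.73 ± 0.22 with shco2 against scramble (adjusted p = 0.0599, or 0.0262 with the block) and 0.02 with shco4 against shco2 (interval -0.50 to 0.53). Without scramble replicate 1, which lay nearest to the hairpin arrays, they were 0.97 (adjusted p = 0.0145) and 0.96 (adjusted p = 0.0129) against scramble. With a floor of 64 they shrank to 0.08 and 0.04, since 7 of the 9 values lie below it. CXCL1, CXCL2 and CXCL3 are near-identical copies, and the suffix _x_at of the CXCL2 probe set marks probes that may match other transcripts, so how signal divides among the 3 genes is uncertain. The same suffix and limit apply to CXCL8 at 202859_x_at and CXCR4 at 209201_x_at.

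**Figure D2:**
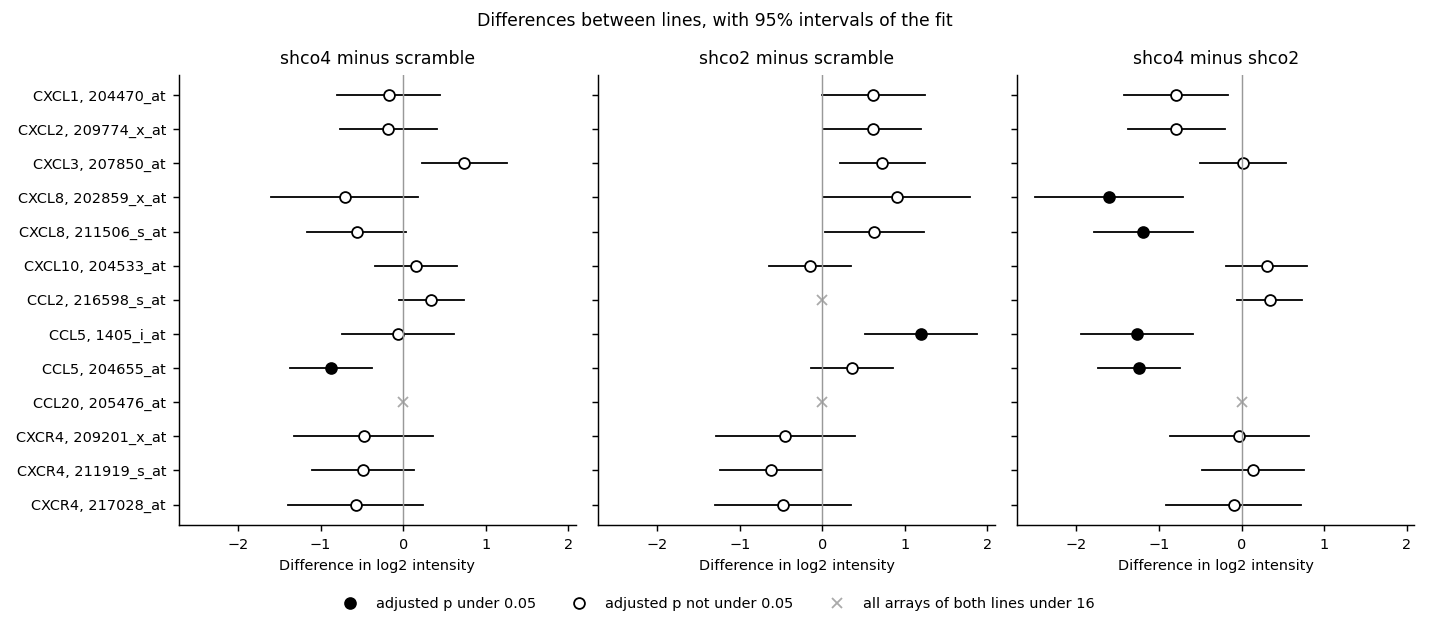
Difference in log2 intensity for each probe set (points) with the 95% interval of the fit (lines), for shco4 minus scramble, shco2 minus scramble and shco4 minus shco2. Filled points have an adjusted p under 0.05 and crosses mark comparisons in which all arrays of both lines were under 16. The CXCL8 and CCL5 probe sets are filled and left of 0 in the third panel, from -1.61 to -1.19.

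CCL5, or RANTES, was lower with shco4 than with shco2 at both of its probe sets. At 204655_at it read 29.9, 30.9 and 44.1 with shco4, 71.3, 79.1 and 94.8 with shco2, and 66.9, 51.4 and 72.9 with scramble. Every shco4 array was below every array of both other lines. The difference was -1.24 ± 0.21 with shco4 against shco2 (2.36-fold lower, adjusted p = 0.00475) and -0.87 ± 0.21 with shco4 against scramble (1.83-fold lower, adjusted p = 0.0308). With shco2 against scramble it was 0.36 (interval -0.13 to 0.86, adjusted p = 0.31).

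The second CCL5 probe set, 1405_i_at, was dimmer and gave another place to scramble. It read 12.6, 17.1 and 22.0 with shco4, 40.2, 32.4 and 64.2 with shco2, and 23.3, 18.6 and 5.74 with scramble. All shco2 arrays were above all others, and shco4 and scramble overlapped around the floor. The difference with shco4 against shco2 was -1.26 ± 0.28 (2.40-fold lower, adjusted p = 0.0151), close to that of the other probe set. With shco2 against scramble it was 1.20 ± 0.28 (2.29-fold higher, adjusted p = 0.0275), and with shco4 against scramble -0.07 (interval -0.74 to 0.61, adjusted p = 1). Both probe sets thus placed shco4 below shco2 and gave different calls against scramble. At 1405_i_at a fall of shco4 below scramble could hardly show, since both lines lay around the floor there.

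The CCL5 calls against scramble were not stable. That of 204655_at with shco4 ended without shco4 replicate 1 (adjusted p = 0.0918) or 2 (0.0877), shco2 replicate 2 (0.0552), or scramble replicate 1 (0.0911) or 3 (0.0886). That of 1405_i_at with shco2 ended without shco2 replicate 1 (adjusted p = 0.065) or scramble replicate 2 (0.0795) or 3 (0.0871). Between the hairpin lines, the call of 204655_at held with every array left out in turn and that of 1405_i_at ended without shco4 replicate 1 (adjusted p = 0.051). With a floor of 64 none of the CCL5 calls remained, the differences between the hairpin lines being -0.34 at 204655_at (adjusted p = 0.0563) and -0.0018 at 1405_i_at (adjusted p = 0.553).

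CCL5 is also made by leukocytes, and 11 of the 13 leukocyte markers listed for comparison were measured. Their summed intensity was 311 to 464 with shco4, 189 to 242 with shco2 and 180 to 258 with scramble. The part of this signal in the CCL5 result was not tested. LYZ lay under the floor on all 9 arrays, and PTPRC, the common leukocyte antigen CD45, averaged 20.3 with shco4, 15.3 with shco2 and 15.1 with scramble. CD14, a receptor for bacterial lipopolysaccharide, averaged 161 with shco4, 56.5 with shco2 and 57.2 with scramble. Its call with shco4 against scramble (adjusted p = 0.049) held in 0 of the 9 fits with 1 array left out and not with the replicate block (adjusted p = 0.0855). CD79A, a part of the B cell receptor, read 41.6, 38.96 and 48.05 with shco4, 17.3, 24.8 and 9.01 with shco2, and 22.6, 9.76 and 21.3 with scramble. It was higher with shco4 than in scramble (adjusted p = 0.0132) and than with shco2 (adjusted p = 0.00604), in 9 of 9 fits with 1 array left out each, but not with a floor of 64. Of the 11 markers, 2 were thus higher with shco4 in each of these comparisons and 0 lower. That is 18.2% of them, against 18.8% of all probe sets called with shco4 against scramble and 31% with shco4 against shco2. Nothing particular to these markers is read from the counts. MS4A1 read 25.2, 25.7 and 24.8 with shco2 and lay under the floor on all scramble arrays. It was higher with shco2 than in scramble (adjusted p = 0.0454), a call that held in 2 of 9 fits with 1 array left out. That call ended with a floor of 64 and with the replicate block (adjusted p = 0.066). It was the 1 marker called in this comparison (9.1%, against 20.7% of all probe sets).

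CXCL10 was measured at a similar dim level in all lines. It read 48.5, 64.3 and 61.0 with shco4, 42.3, 57.7 and 41.5 with shco2, and 42.7, 50.4 and 64.2 with scramble, and the 3 lines overlapped. The differences were 0.16 with shco4 against scramble (interval -0.34 to 0.65), -0.15 with shco2 against scramble (-0.64 to 0.34) and 0.30 with shco4 against shco2 (-0.19 to 0.80), with adjusted p = 0.725, 0.754 and 0.357. These intervals leave room for a change of up to 1.7-fold between the hairpin lines.

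CCL2 and CCL20 gave little signal. CCL2 read 26.4, 4.15 and 19.7 with shco4, 4.01, 5.18 and 2.87 with shco2, and 2.22, 2.55 and 12.7 with scramble. Only shco4 replicates 1 and 3 were above the floor, and shco4 replicate 2 lay among the arrays of the other lines. No call was made for shco4 against scramble (adjusted p = 0.221) or shco2 (adjusted p = 0.183), and no fold is given, since 7 of the 9 values stand at the floor. The difference rests on single arrays: it was 0.15 without shco4 replicate 1, passed without shco4 replicate 2 (0.51, adjusted p = 0.0395 against scramble and 0.0247 against shco2), and was 0 with a floor of 64. CCL20 read 3.24, 15.7 and 3.66 with shco4, 2.22, 2.21 and 3.48 with shco2, and 2.09, 3.44 and 2.44 with scramble, so no line could be compared with another. A change in CCL20, or in CCL2 with shco2, was not detectable at these intensities.

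CXCR4 was lower on average in both Coco lines than in scramble at all 3 of its probe sets, without a call in the fit reported. At 211919_s_at it read 179, 281 and 233 with shco4, 150.3, 263 and 222 with shco2, and 271, 353 and 335 with scramble. At 217028_at it read 95.4, 216 and 183 with shco4, 130.3, 197 and 179 with shco2, and 187, 281 and 237 with scramble. At 209201_x_at it read 111, 237 and 214 with shco4, 124, 227 and 213 with shco2, and 226, 245 and 274 with scramble. Only the shco2 arrays at 211919_s_at stood wholly below scramble, and elsewhere the lines overlapped.

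The CXCR4 differences with shco4 against scramble were -0.48 ± 0.26, -0.57 ± 0.34 and -0.48 ± 0.35 in that order of probe sets, with adjusted p = 0.271, 0.333 and 0.459. In the fit blocked on replicate number, 211919_s_at passed (adjusted p = 0.0229), and 217028_at (0.0571) and 209201_x_at (0.184) did not. With shco2 against scramble they were -0.62 ± 0.26, -0.48 ± 0.34 and -0.45 ± 0.35, with adjusted p = 0.154, 0.442 and 0.488. In the blocked fit, 211919_s_at passed here too (adjusted p = 0.011), and 217028_at (0.0862) and 209201_x_at (0.206) did not. The hairpin lines differed from each other by 0.14 (interval -0.48 to 0.75), -0.10 (-0.92 to 0.72) and -0.03 (-0.87 to 0.81). The order of mean levels below scramble was thus not settled, shco4 being above shco2 at 211919_s_at and below it at the other probe sets.

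Much of the spread of CXCR4 lay along the replicate numbers. At all 3 probe sets the array numbered 1 was the lowest of its line in all 3 lines, which held for 1670 of the 14686 probe sets that were above the floor on every array (11.4%). After each line's mean was removed, the CXCR4 probe sets correlated with each other across the 9 arrays at r = 0.90 to 0.92, as a description of arrays that share 3 lines. Whether arrays with the same number were prepared together is not stated in the labels. The 3 probe sets are readings of 1 gene on the same arrays and are not independent.

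**Figure D3:**
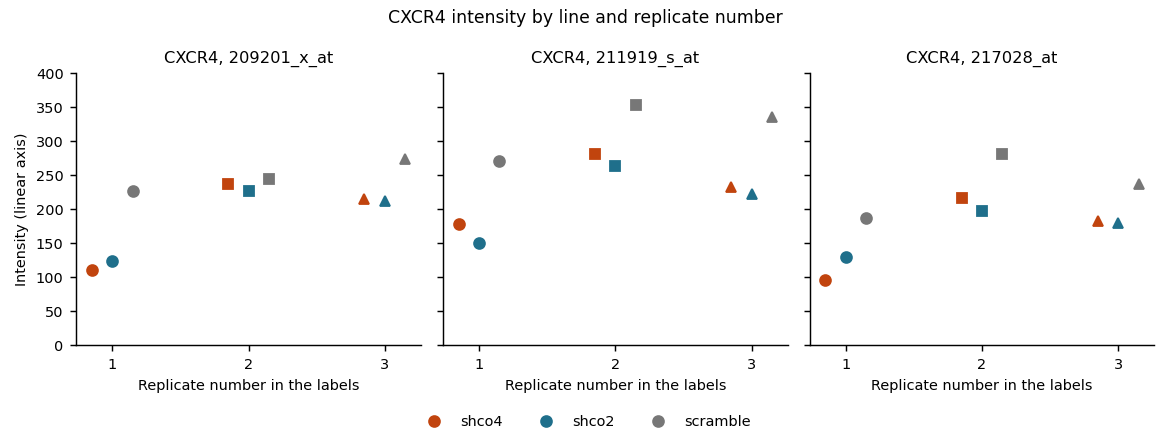
Intensity (linear axis) of the 3 CXCR4 probe sets against the replicate number in the labels, coloured by line. Within each replicate number both Coco lines lie below scramble at every probe set, and the arrays numbered 1 are the lowest of their lines, at 95.4 and 130.3 in the Coco lines and 187 in scramble for 217028_at.

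The members differed in how they moved together. After line means were removed, CXCL8 at 202859_x_at correlated across the 9 arrays with its other probe set at r = 0.83, with CXCL2 at 0.85, with CXCL1 at 0.60 and with CXCL3 at -0.50. It also correlated with CXCL10 at 0.72, with CCL5 at 204655_at at 0.396 and with the CXCR4 probe sets at 0.46 to 0.57. CXCL8 at 211506_s_at correlated with CXCL1 at 0.80, CXCL2 at 0.65, CXCL3 at -0.28 and CXCL10 at 0.25. These values describe 9 arrays that share 3 lines and carry no test. Among all genes with 1 symbol, above the floor throughout and with enough spread, those nearest in pattern over the 9 arrays to CXCL8 were OAS3 (r = 0.98), NUP54 (0.96) and ANAPC10 (0.95), out of 4757 probe sets searched. For CCL5 at 204655_at they were SPAG9 (r = 0.99), N4BP1 (0.98) and ZC3HAV1 (0.98). For CXCR4 at 211919_s_at they were IGFBP1 (r = 0.97), ATP2B1 (0.96) and RHOQ (0.96), and for CXCL3 they were CLBA1 (r = 0.98), ZKSCAN4 (0.97) and TRAFD1 (0.95). For CXCL2 the nearest were OAS3 (r = 0.94), FIP1L1 (0.94) and EGR1 (0.93), for CXCL1 ZNF675 (0.95), GUCY1B1 (0.94) and MAGOHB (0.93), and for CXCL10 GOSR1 (0.93), TBCE (0.93) and TFF2 (0.92). In these searches line means were kept, and 4757 to 12353 probe sets were searched for a member. The r values are the highest found among them and carry no test either.

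The related genes below come from lists, each gene read at its brightest probe set. The share called is set beside that of all probe sets, 18.8% for shco4 against scramble, 20.7% for shco2 against scramble and 31% for shco4 against shco2, of which many are dim, and nothing particular to a list is read from it. Other chemokines were mostly silent or dim. Of 9 other CXC ligands measured, CXCL6, CXCL13, CXCL14 and PPBP lay under the floor on all arrays. In both comparisons with scramble 0 of the 9 were called by limma, and between the hairpin lines PF4, a platelet CXC chemokine, was higher with shco4 (averages of 69.7 with shco4 and 35.7 with shco2, difference 0.97, adjusted p = 0.0344). That call held in 2 of the 9 fits with 1 array left out (up to adjusted p = 0.0993, without shco2 replicate 2) and ended with a floor of 64 (adjusted p = 0.422). CXCL12, the ligand of CXCR4, averaged 26.0 with shco4, 23.5 with shco2 and 26.8 with scramble. Of 17 other CC, CX3C and XC ligands, 1 was called, CX3CL1, a membrane-bound chemokine. It averaged 141 with shco4, 79.0 with shco2 and 154 with scramble, with calls for shco4 against shco2 (0.82, adjusted p = 0.0233) and for shco2 against scramble (-0.95, adjusted p = 0.0197). Those calls held in 5 and 7 of the 9 fits with 1 array left out, and without shco2 replicate 1 neither remained (adjusted p = 0.0765 and 0.0665).

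Among 20 other chemokine receptors, 3 were higher with shco4 than with shco2 and 0 lower, which is 15% of them against 31% of all probe sets. CCRL2, an atypical receptor that binds chemerin, read 603, 462 and 592 with shco4, 114, 157 and 196 with shco2, and 464, 544 and 659.9 with scramble. The shco2 arrays stood apart from both other lines, by 1.85 with shco4 against shco2 (adjusted p = 0.00149) and -1.85 with shco2 against scramble (adjusted p = 0.00284). ACKR3, the other receptor of CXCL12, read 252, 172 and 134 with shco4, 81.3, 88.1 and 56.1 with shco2, and 134, 91.9 and 128 with scramble. Its difference with shco4 against shco2 was 1.29 ± 0.29 (adjusted p = 0.016), and it did not pass against scramble in either Coco line. ACKR2, a scavenger of CC chemokines, was the third (0.69, adjusted p = 0.0323), a call that held in 2 of the 9 fits with 1 array left out (up to adjusted p = 0.0993) and ended with a floor of 64 (adjusted p = 1). Against scramble, ACKR2 passed with shco4 under the replicate block (0.55, adjusted p = 0.0305), which made it the 1 receptor called there, and not without it (adjusted p = 0.0987).

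NF-kB genes were called in both directions. Of 21 subunits and regulators, 5 were higher and 3 lower with shco4 against scramble, 4 higher and 3 lower with shco2 against scramble, and 6 higher and 4 lower with shco4 against shco2, with medians of 0.21, 0.05 and 0.25. That is 38.1%, 33.3% and 47.6% of them, against 18.8%, 20.7% and 31% of all probe sets. NFKB1, the p50 precursor, averaged 728 with shco4, 799 with shco2 and 491 with scramble, and it rose by 0.57 with shco4 (adjusted p = 0.00162) and 0.70 with shco2 (adjusted p = 0.000704). RELA, the p65 subunit, averaged 2354 with shco4, 1443 with shco2 and 2032 with scramble, with a difference of 0.71 for shco4 against shco2 (adjusted p = 0.000294). It fell with shco2 by 0.49 (adjusted p = 0.0022), and its call with shco4 against scramble (0.21, adjusted p = 0.0454) held in 1 of the 9 fits with 1 array left out (up to adjusted p = 0.122) and not with the replicate block (adjusted p = 0.0521). MYD88, the adaptor of IL1 and Toll-like receptors, was likewise higher with shco4 than with shco2 by 0.80 (adjusted p = 6.95e-05) and lower with shco2 than in scramble (-0.83, adjusted p = 0.00018).

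The inflammatory cytokines held genes with the order of lines seen for CXCL8. IL6 read 403, 461 and 489 with shco4, 1175, 1161 and 1193 with shco2, and 457, 500.3 and 683 with scramble, a difference of -1.39 ± 0.15 with shco4 against shco2 (adjusted p = 0.000902) and 1.13 with shco2 against scramble (adjusted p = 0.00367). IL11 read 72.5, 271 and 114 with shco4, 2549, 3129 and 1952 with shco2, and 632, 910.5 and 404 with scramble, a difference of -4.26 ± 0.53 between the Coco lines (adjusted p = 0.00147). Both its calls against scramble (adjusted p = 0.0316 with shco4 and 0.0408 with shco2) held in 2 of the 9 fits with 1 array left out (up to 0.0989 without scramble replicate 2 and 0.12 without shco2 replicate 2). IL1R1, the receptor of IL1, went the other way and was higher with shco4 than with shco2 by 1.91 (adjusted p = 0.00102). Over the 16 genes measured in this list, 4 were higher and 2 lower with shco4 against shco2, 3 higher and 1 lower with shco4 against scramble, and 2 higher and 1 lower with shco2 against scramble, with medians of -0.02, 0.04 and -0.05. These are 37.5%, 25% and 18.8% of the list, near the 31%, 18.8% and 20.7% of all probe sets.

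Interferon genes were called in both directions, while CXCL10 was not called. Of 16 response factors and targets, 6 were higher and 6 lower with shco4 against shco2, 4 higher and 5 lower with shco4 against scramble, and 4 higher and 3 lower with shco2 against scramble, with medians of 0.03, 0.08 and 0.15. The calls cover 75%, 56.2% and 43.8% of the list, against 31%, 18.8% and 20.7% of all probe sets. IFIT2, an antiviral protein, averaged 636 with shco4, 2645 with shco2 and 2187 with scramble, with a difference of -2.06 between the Coco lines (adjusted p = 6.18e-05). RIGI, a sensor of viral RNA, averaged 503 with shco4, 1256 with shco2 and 863 with scramble, with a difference of -1.32 between the Coco lines (adjusted p = 9.63e-05). IRF1, a transcription factor induced by interferon, was higher with shco4 than with shco2 (0.96, adjusted p = 5.98e-05).

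Some genes around CXCR4 were called. Of 19 genes of its signalling, trafficking and transcription, 5 were higher and 3 lower with shco4 against shco2, 6 higher and 1 lower with shco4 against scramble, and 3 higher and 5 lower with shco2 against scramble, with medians of 0.01, 0.15 and 0. The called share was 42.1%, 36.8% and 42.1%, against 31%, 18.8% and 20.7% of all probe sets. CD74, which forms a receptor for MIF with CXCR4 and is the invariant chain of MHC class II, averaged 5468 with shco4, 1290 with shco2 and 2412 with scramble. Its differences were 2.07 with shco4 against shco2 (adjusted p = 8.63e-05), 1.17 with shco4 against scramble (adjusted p = 0.00139) and -0.90 with shco2 against scramble (adjusted p = 0.00283). ARRB1, an arrestin that desensitizes G protein-coupled receptors, was higher with shco4 than with shco2 by 1.39 (adjusted p = 0.000508), and RAC1, a GTPase of cell movement, by 0.47 (adjusted p = 0.000196).

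Some genes for proteins that cut or bind chemokines were called. Of 14 such genes, 3 were higher and 4 lower with shco4 against shco2, 0 higher and 3 lower with shco4 against scramble, and 1 higher and 4 lower with shco2 against scramble, with medians of 0.08, -0.15 and -0.18. The called share was 50%, 21.4% and 35.7%, against 31%, 18.8% and 20.7% of all probe sets. ADAM10, the protease that sheds CX3CL1 and CXCL16 from the cell surface, averaged 4123 with shco4, 1668 with shco2 and 3484 with scramble, and fell by 1.07 with shco2 against scramble (adjusted p = 0.000999). SDC1, a heparan sulfate proteoglycan that can hold chemokines, averaged 374 with shco4, 1068 with shco2 and 931 with scramble, and fell by 1.34 with shco4 against scramble (adjusted p = 0.00374). SDC4, its relative, fell by 0.65 with shco4 against scramble (adjusted p = 0.00452).

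**Figure D4:**
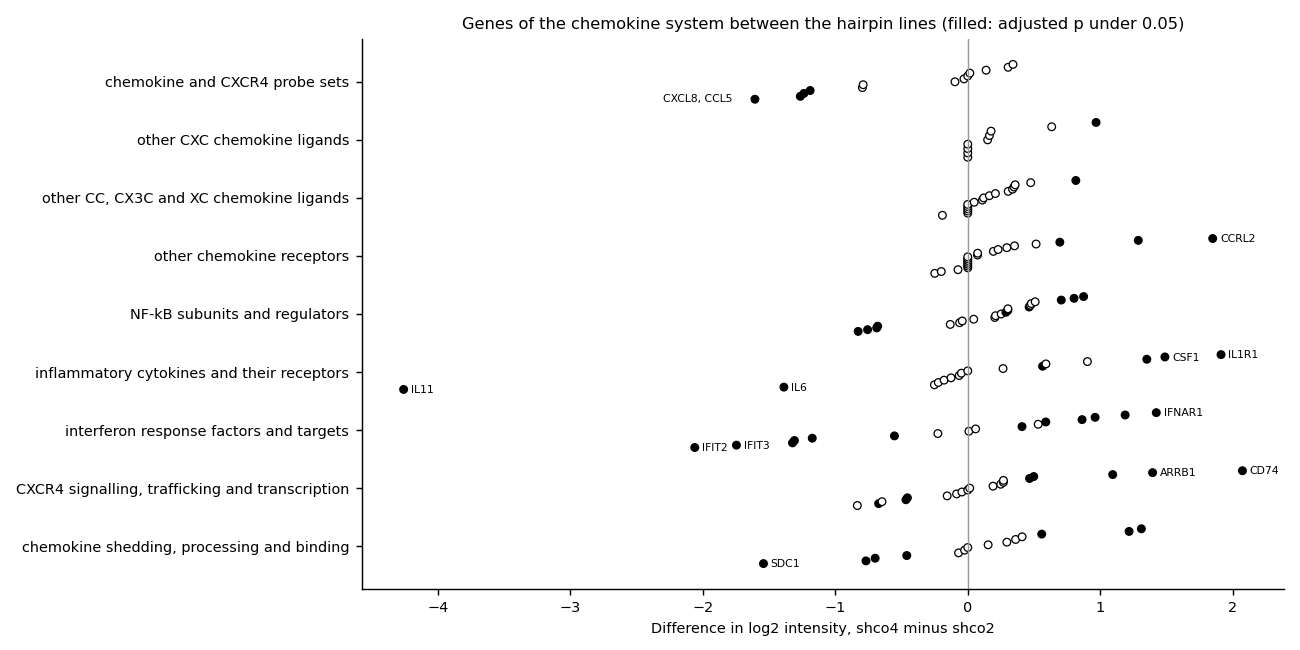
Difference in log2 intensity, shco4 minus shco2, for the 13 chemokine and CXCR4 probe sets (top row) and for 8 lists of related genes, 1 point per gene at its brightest probe set, with filled points for an adjusted p under 0.05. CXCL8 and CCL5 lie left of 0 with IL6 (-1.39) and IL11 (-4.26), while CCRL2 (1.85), IL1R1 (1.91) and CD74 (2.07) lie right of it.

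Whole-array measures were close. Median intensity was 122 to 130 per array, and the ratio of 3′ to 5′ signal for ACTB was 1.12 to 1.14 with shco4, 1.08 to 1.11 with shco2 and 1.07 to 1.10 with scramble. Of the markers of the cell line, VIM, CD44, EGFR, ANXA1, MSN and CAV1 summed to 42530 to 44590 with shco4, 25990 to 27280 with shco2 and 40280 to 42850 with scramble. All 6 were called lower with shco2 against scramble, where 9.95% of all probe sets were called lower. All 6 were also called higher with shco4 against shco2, where 14.9% of all were called higher. CD44 alone of the 6 was called with shco4 against scramble, and it was higher. The 6 markers listed as low in these cells (ESR1, PGR, ERBB2, EPCAM, CDH1 and GATA3) summed to 1560 to 1810 with shco4, 1551 to 1705 with shco2 and 1995 to 2060 with scramble, and of these PGR alone lay under the floor on all arrays. EPCAM, an epithelial adhesion protein, was well above the floor, at 229, 220 and 242 with shco4, 549, 477 and 505.5 with shco2, and 541, 550.0 and 609.9 with scramble, and was lower with shco4 than in scramble (adjusted p = 0.000266). CDH1, or E-cadherin, read 182, 243.5 and 211 with shco4, 30.5, 57.2 and 28.0 with shco2, and 71.5, 101.5 and 117 with scramble. The difference for shco4 against shco2 was 2.53 (adjusted p = 0.00148). With shco4 against scramble CDH1 did not pass (1.15, adjusted p = 0.05002), but did with the replicate block (0.0384). Its call as lower with shco2 than in scramble (adjusted p = 0.0258) held in 5 of the 9 fits with 1 array left out. That call ended with a floor of 64 (adjusted p = 0.104). Fibroblast markers summed to 675 to 935 with shco4, 358 to 405 with shco2 and 656 to 687 with scramble, over 9 genes with FAP and POSTN under the floor throughout. LUM, an extracellular matrix proteoglycan, read 296, 239 and 128 with shco4, all arrays under the floor with shco2, and 18.2, 19.1 and 25.0 with scramble, and was higher with shco4 than in scramble (adjusted p = 0.0012). COL1A2, a chain of type I collagen, was lower with shco2 than in scramble (-2.36, adjusted p = 0.00147). The part of these differences in the chemokine results was not tested.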

How the data were processed

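Arrays had been hybridized with biotin-cRNA from 200 ng of total RNA, per the labels' protocols. The deposited table holds linear intensity values for 22277 probe sets, 1 column per sample. The authors had scaled the intensities, as read from the values: the mean without the lowest and highest 2% was 500.1 on every array. The software is not given in the sources used here, and 9 arrays limit the precision.

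After 62 control probe sets were left out, intensities below 16 were raised to 16 before log2. A model with 1 mean for each group was fitted over the 9 arrays by limma 3.58.1 in R 4.3.3 (lmFit and eBayes, prior degrees of freedom 0.53). Tests are two-sided with Benjamini-Hochberg adjustment over 22215 probe sets, of which 2611 (11.8%) lay under the floor throughout. P-values measure the spread between these arrays, which the labels call biological replicates.

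Platform symbols were updated through RefSeq gene identifiers. Every member probe set is named. From each list of related genes, at the brightest probe set of a gene, up to 3 called genes with the smallest F-test p are named, and others named (CXCL12, the ligands under the floor and single cell type markers) were chosen after their values were seen. Genes nearest in pattern had the highest Pearson r among probe sets with at least 0.5 of the member's SD. Members and lists were chosen with earlier results of these data known. Alternatives were another floor, a pseudocount, 2 normalizations, 2 filters, an intensity trend, fits of 2 lines, the replicate number as a block and each array left out. After group means were removed, same-numbered arrays of shco4 and scramble correlated at r = 0.133 to 0.236. In the other comparisons the lowest such r was 0.0576 and 0.0567. The fit reported uses no pairs in any comparison, so its p-values, intervals and counts do not take this likeness into account. Fits with the block are given as an alternative. For CXCL3 and CXCR4 they are set beside the main fit in both comparisons with scramble. For related genes they are set beside it mostly for shco4 against scramble. These choices were made after the block's calls had been seen. The block's member calls in every comparison are given at the end.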

Additional observations from a re-analysis of the deposited data

Results flagged for a closer look

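At 4 probe sets the lines with the 2 Coco hairpins differed from each other by limma's test of that difference. The log2 difference, shco4 minus shco2, was -1.61 for CXCL8 at 202859_x_at and -1.19 at 211506_s_at, and -1.26 for CCL5 at 1405_i_at and -1.24 at 204655_at. Of all probe sets 31% were called in this comparison.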

How the results depend on the processing

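Over 35 pairs of a member probe set and a comparison, 18 other settings gave 616 values. Of these 551 kept direction and side of the threshold, 32 newly passed, 17 no longer passed and 16 changed sign, each of them a difference that was not called. The number of members called with shco4 against scramble (1 as reported) was 0 with a floor of 64, with the filter on dim probe sets and with the 2 lines fitted alone, 2 with a pseudocount of 32, with median centring and without probe sets at the floor throughout, and 0 to 1 with single arrays left out. With shco2 against scramble (1 as reported) it was 0 with a floor of 64 and with the 2 lines alone, 2 with the pseudocount, with median centring and without floored probe sets, 5 with the dim filter, and 0 to 2 with single arrays left out. The dim filter removes CCL5 and CXCL3 and tests fewer probe sets, and then CXCL1, CXCL2, both CXCL8 probe sets and CXCR4 at 211919_s_at passed with shco2. With shco4 against shco2 (4 as reported) it was 2 with a floor of 64, where the CXCL8 calls held, 3 to 5 with single arrays left out and 4 to 6 otherwise. The cause of these shifts was otherwise not tested. Sign changes outside single arrays were CCL5 at 1405_i_at with shco4 against scramble (0.0557 with the pseudocount), CXCL3 with shco4 against shco2 (-0.0437 with quantile normalization) and CXCR4 at 209201_x_at with shco4 against shco2 (0.0377 with median centring). With single arrays left out, the sign changed for CXCL2 with shco4 against scramble (-0.34 to 0.10), CCL5 at 1405_i_at with shco4 against scramble (-0.20 to 0.0796), CXCL10 with shco2 against scramble (-0.30 to 0.0072), CXCL3 with shco4 against shco2 (-0.0925 to 0.10) and CXCR4 with shco4 against shco2 (-0.30 to 0.31 at 209201_x_at, -0.0903 to 0.31 at 211919_s_at, -0.33 to 0.26 at 217028_at). Over all probe sets, 4178 were called with shco4 against scramble, and 2760 without scramble replicate 2.

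Arrays with the same number deviated together in every comparison. The correlations were r = 0.133 to 0.236 between shco4 and scramble, 0.0576 to 0.214 between shco4 and shco2 and 0.0567 to 0.289 between shco2 and scramble. In 18 of 18 cases over all lines an array's best match in another line had its own number, a hint from the data. With the replicate number as a block, 3 members were called with shco4 against scramble, 3 with shco2 against scramble and 4 with shco4 against shco2. CXCR4 at 211919_s_at passed with shco4 (-0.48, adjusted p = 0.0229) and shco2 (-0.62, adjusted p = 0.011) against scramble, as did CXCL3 (adjusted p = 0.0273 and 0.0262). With the block, CX3CL1 was not called for shco4 against shco2 (adjusted p = 0.0644) or shco2 against scramble (0.055). Intensities near the floor limit what can be said of CCL2, CCL20 and CCL5.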
